A study of Homo sapiens with 6 samples.

Results

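The genes described here are 10 RNA-binding proteins that set which exons a cell type keeps, namely MBNL1, MBNL2, MBNL3, ESRP1, ESRP2, RBFOX2, CELF1, PTBP1, QKI and RBM47. They were taken by name from the deposited table of counts, which lists 33451 genes, and all 10 were found and passed the filter on low counts. The cells were MDA-MB-453, an established human breast cancer cell line, which was the same in every sample. The labels name no added gene or deletion. In the 25(OH)D group the cells were cultured for 5 days with 100 nM of 25-hydroxyvitamin D, the main circulating form of vitamin D, and in the control group they were cultured for 5 days with the solvent alone. Each group had 3 libraries of mRNA, and the comparison asks how 25(OH)D altered the transcript levels of these cells. The study's methods describe the libraries as biological replicates without saying how they were separated, and the p-values measure the spread between these libraries.

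Splicing regulators of this kind bind short motifs in and beside an exon, and the same protein often favours inclusion from one side of the exon and skipping from the other. The muscleblind proteins (MBNL) drive the exon choices of mature muscle and brain, CELF1 opposes them at many of the same exons, and ESRP1 and ESRP2 keep the epithelial forms of receptors and adhesion proteins. RBFOX2 and QKI favour exon forms of mesenchymal cells at many sites, PTBP1 represses exons that neurons include, and RBM47 both regulates splicing and assists the editing of APOB mRNA.

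The deposited tables hold 1 number per gene and library, which adds up all the splice forms of that gene. MBNL1 shows what this leaves out, since the study examined its alternative exon. An exon of 54 bases that lies between the semi-quantitative primers of the study is printed here with the MBNL1 primers from its primer list. MBNL proteins are known to repress this exon in their own transcripts, and the exon favours a nuclear location of the protein. It lies on the plus strand at chr3:152446704-152446757 of GRCh38, and it is coding in each of the 5 transcripts that contain it among the 24 MBNL1 transcripts of GENCODE 29. Capitals in the exon mark the binding site of the reverse primer for quantitative PCR, and all sequences are written 5′ to 3′.
MBNL1 exon: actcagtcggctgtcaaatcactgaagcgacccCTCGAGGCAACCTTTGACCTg
quantitative PCR, forward: gttgcaccaagcttagccac
quantitative PCR, reverse: aggtcaaaggttgcctcgag
semi-quantitative PCR, forward: gcccaataccaggtcaacca
semi-quantitative PCR, reverse: gtgttaaagactgcggtggc

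The forward primer for quantitative PCR matched 16 of the 24 transcripts at chr3:152432729-152432748, and the reverse primer matched the 5 transcripts with the exon at chr3:152446737-152446756. Within this annotation the pair matches only forms with the exon, and 11 transcripts carry the forward site without the exon. The semi-quantitative pair lies at chr3:152445480-152445499 and chr3:152447683-152447702, on either side of the exon. Its predicted products were 197 bases for the 5 transcripts with the exon and 143 bases for 8 transcripts without it. None of the primers matched a transcript of another gene. The MBNL1 count described here sums the transcripts of both forms, and no value below says how much of either was made.

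The 6 libraries held between 33268860 and 40928176 counts. A total of 18183 genes were tested with the quasi-likelihood test of edgeR, and a gene was called at an adjusted p under 0.05. Levels are given as CPM, counts scaled to a common library size with the TMM factors of edgeR, and fold changes are of 25(OH)D against control. Epithelial marker genes were abundant in all libraries, with a summed RPKM (counts scaled to gene length and library total) between 983 and 1021 in control and between 1173 and 1202 with 25(OH)D. All 20 were tested, and 13 rose and 2 fell (OVOL2 and FOXA1), against 17.3% higher and 16.5% lower over all genes tested. Mesenchymal markers summed to 6.07 to 6.75 in control and 4.48 to 5.02 in 25(OH)D. ZEB1, a repressor of epithelial genes, rose (log2 fold change 1.13, adjusted p = 1.60e-04). CDH2 (log2 fold change -1.50, adjusted p = 3.74e-07) and COL1A1 (-0.18, adjusted p = 0.0320) fell, so that 1 rose and 2 fell of the 5 that passed the filter. The other 9 of the 14 that were listed did not pass it, with SNAI1, TWIST1 and LUM at 2 counts or fewer in every library. The sums of neuron markers (0.429 to 0.638 in control and 0.542 to 0.666 in 25(OH)D) and muscle markers (0.278 to 0.611 and 0.423 to 0.720) overlapped between the groups. Of the 3 neuron markers tested, 2 rose and 0 fell. These were SYT1 (log2 fold change 2.08, adjusted p = 0.00644, 26 counts or fewer in every library) and MAP2 (0.55, adjusted p = 0.0298). Of the 3 muscle markers tested, 0 rose and 1 (TTN) fell. SNAP25, GAP43, DES and MYOG had 2 counts or fewer in every library. Leukocyte markers summed to 2.14 to 2.80 in control and 6.10 to 8.75 in 25(OH)D, of which the only gene tested was CD68, also a gene of lysosomes, while CD3E had 2 counts or fewer in every library. The share of counts on mitochondrial genes was 7.93% ± 0.0744 in control and 9.07% ± 0.176 in 25(OH)D (SD, n = 3 each). What these marker sums and the mitochondrial share contributed to the results below was not tested.

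Of the 10 regulators, PTBP1, QKI and RBFOX2 fell, RBM47 rose, and 6 were not called. Over all genes tested, 33.8% were called, 17.3% as higher and 16.5% as lower, so that 4 of 10 (40.0%) is close to the background. With scaling by library size alone or by the upper quartile, 0 rose and 7 fell. The groups did not overlap for 7 of the 10, against 45.7% of all genes tested. The median log2 fold change was -0.10 over the regulators, with 8 negative and 2 positive values, and -0.01 over all genes tested. The changes were small, as the called regulators had log2 fold changes between -0.51 and 0.14 and none passed an absolute value of 1, which 5.99% of all genes tested did together with an adjusted p under 0.05. In a bulk sample, a lower transcript level in each cell and fewer cells with the transcript cannot be told apart.

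**Figure D1:**
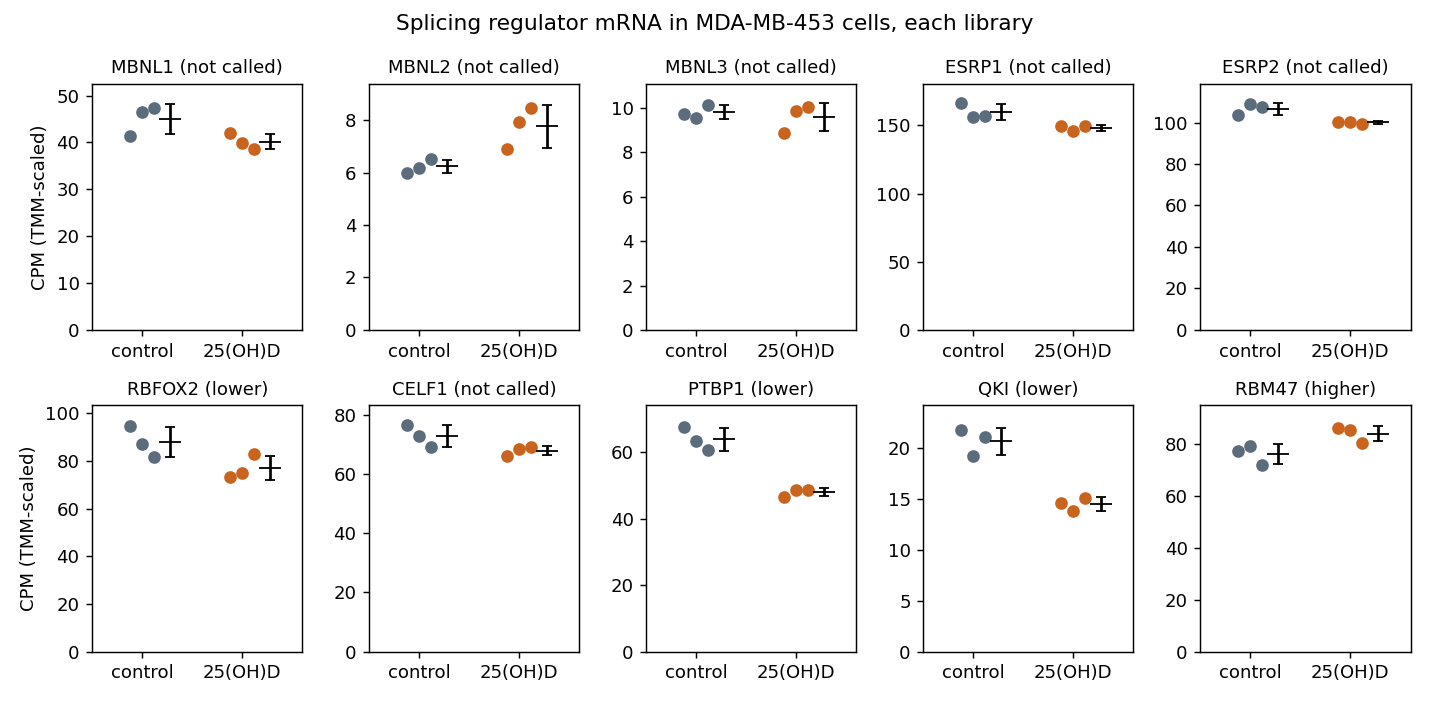
The level of each of the 10 regulators in CPM, with 1 point per library, a bar at the mean of 3 libraries per group and an axis of its own for each gene. The points of the groups separated for MBNL2, ESRP1, ESRP2, CELF1, PTBP1, QKI and RBM47, and overlapped for MBNL1, MBNL3 and RBFOX2.

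**Figure D2:**
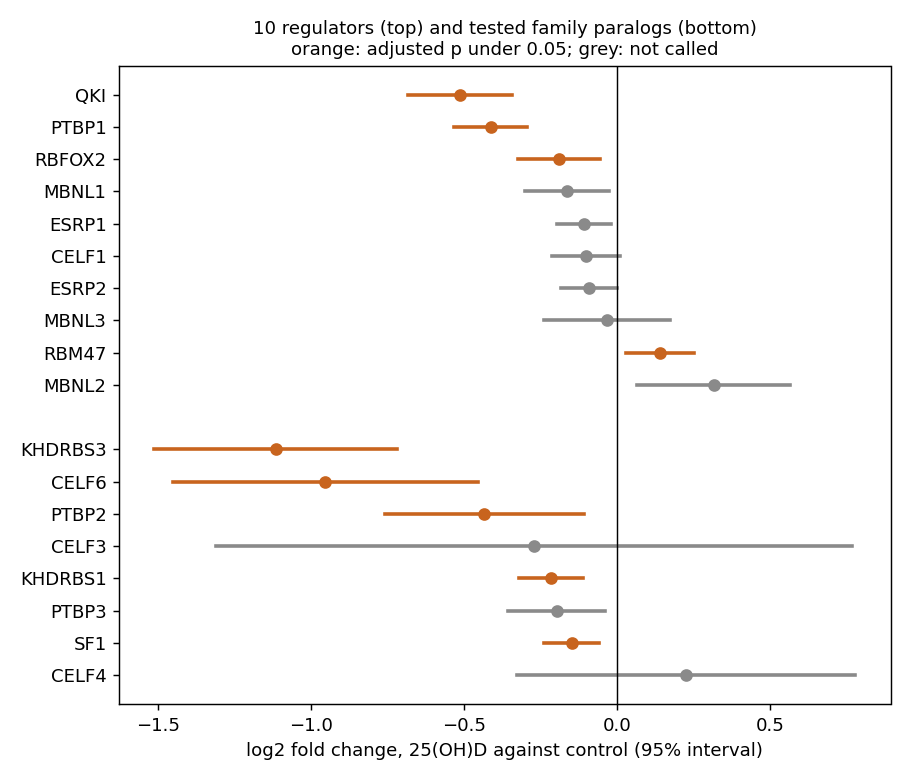
Log2 fold change of each regulator (top) and of each tested gene of the same protein families (bottom), 25(OH)D against control. The 95% confidence intervals were computed from the edgeR fit for each gene alone, without adjustment for the number of genes tested. Among the regulators, PTBP1 (-0.41) and QKI (-0.51) lay farthest below 0, while the intervals of MBNL3, ESRP2 and CELF1 included 0. Among the family genes, KHDRBS3 (-1.12) and CELF6 (-0.95) lay farthest below 0, and the intervals of CELF3 and CELF4 included 0. The intervals of MBNL1, MBNL2, ESRP1 and PTBP3 excluded 0, but these genes were not called after adjustment.

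The largest falls were those of QKI and PTBP1. QKI, a KH-domain protein needed for myelination and for many exon choices and circular RNAs of mesenchymal cells, lies on the plus strand at chr6:163414000-163578596. It was at 21.8, 19.2 and 21.1 CPM in control and at 14.6, 13.8 and 15.1 CPM with 25(OH)D. All 25(OH)D libraries were below all control libraries. Mean levels dropped from 20.7 ± 1.33 to 14.5 ± 0.663 CPM (SD, n = 3 each), or a log2 fold change of -0.51 (standard error, SE, 0.0789, adjusted p = 1.48e-04), which is a change of -30.0% with a 95% confidence interval from -37.7% to -21.2%.

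PTBP1, the polypyrimidine tract-binding protein, represses exons by binding pyrimidine-rich stretches beside them and is replaced by PTBP2 when neurons form. It lies on the plus strand at chr19:797075-812327. It was at 67.6, 63.5 and 60.6 CPM in control and at 46.6, 48.6 and 48.8 CPM with 25(OH)D. The groups lay far apart relative to the spread within each. Mean levels dropped from 63.9 ± 3.52 to 48.0 ± 1.23 CPM (SD, n = 3 each), for a log2 fold change of -0.41 (SE 0.0556, adjusted p = 4.49e-05), a change of -24.9% (95% confidence interval from -30.9% to -18.4%). PTBP1 and QKI remained called in each of 9 other choices of analysis and whichever library was left out, and the log2 fold change of QKI was between -0.56 and -0.28 across them.

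RBFOX2 belongs to the RBFOX family, whose members recognise the same short motif and differ mainly in where they are expressed. It lies on the minus strand at chr22:35738736-36028425. It was at 94.5, 87.1 and 81.8 CPM in control and at 73.1, 75.03 and 82.9 CPM with 25(OH)D. The third 25(OH)D library lay above the third control library, so the groups overlapped. The mean was 87.8 ± 6.37 CPM in control and 77.0 ± 5.15 CPM in 25(OH)D (SD, n = 3 each), for a log2 fold change of -0.19 (SE 0.0619, adjusted p = 0.0285). The call was lost without control replicate 1 (-0.13, adjusted p = 0.143), control replicate 2 (adjusted p = 0.0793), 25(OH)D replicate 1 (adjusted p = 0.130) or 25(OH)D replicate 2 (adjusted p = 0.116), and with limma on RPKM values (adjusted p between 0.0548 and 0.0573).

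RBM47, which has RNA recognition motifs and also stabilises some mRNAs, was the regulator that rose. It lies on the minus strand at chr4:40423267-40630875. It was at 77.4, 79.2 and 72.0 CPM in control and at 86.1, 85.4 and 80.5 CPM with 25(OH)D. The highest control library stood just below the lowest 25(OH)D library. The mean rose from 76.2 ± 3.77 to 84.0 ± 3.06 CPM (SD, n = 3 each), for a log2 fold change of 0.14 (SE 0.0517, adjusted p = 0.0499). The adjusted p lies at the threshold, and the call was lost in 5 of 9 other choices of analysis and without control replicate 1 (adjusted p = 0.0631), control replicate 3 (0.160), 25(OH)D replicate 1 (0.139) or 25(OH)D replicate 2 (0.133).

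Since RBM47 was the regulator called higher, the windows before its starts are shown where they held a motif of interest. RefSeq gives promoter windows of 250 bases before and 50 bases after each start on GRCh38.p14, 4 of them for RBM47. They were searched on both strands for AGGTCA and GGTTCA, the core motifs of binding sites of the vitamin D receptor, and for CACGTG, the E-box of MYC and related factors, none of which contains another. AGGTCA was in 2 of the 4 RBM47 windows, on the strand of the gene, and is in capitals in the windows printed here. Its first base was 10 bases before the start in the window at chr4:40630545-40630844 and at position 33 after the start in the window at chr4:40515936-40516235, both on the minus strand.
RBM47, first window: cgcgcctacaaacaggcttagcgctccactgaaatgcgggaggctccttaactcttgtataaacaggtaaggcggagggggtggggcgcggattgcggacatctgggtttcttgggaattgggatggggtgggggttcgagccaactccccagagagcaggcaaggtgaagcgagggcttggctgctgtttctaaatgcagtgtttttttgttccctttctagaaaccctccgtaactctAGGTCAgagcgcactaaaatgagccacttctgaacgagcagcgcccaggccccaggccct
RBM47, second window: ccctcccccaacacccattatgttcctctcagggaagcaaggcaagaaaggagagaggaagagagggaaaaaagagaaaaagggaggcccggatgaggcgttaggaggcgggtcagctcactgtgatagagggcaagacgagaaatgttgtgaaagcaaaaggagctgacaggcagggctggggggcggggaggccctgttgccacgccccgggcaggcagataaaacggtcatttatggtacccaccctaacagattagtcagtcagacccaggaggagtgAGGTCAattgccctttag

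A match of these letters is a description of the sequence and not a binding site. AGGTCA was in 13.8%, GGTTCA in 8.62% and CACGTG in 7.26% of all 35116 windows. Among the other regulators with windows, AGGTCA was in 1 of 5 windows of CELF1 and CACGTG in 1 of 3 windows of MBNL1. The 2 windows of PTBP1, the 2 of MBNL2 and the 4 of MBNL3 held none of the 3 motifs, and ESRP1, ESRP2, RBFOX2 and QKI had no entry.

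None of the 3 MBNL genes was called. MBNL1 lies on the plus strand at chr3:152243828-152465780. It was at 41.4, 46.4 and 47.3 CPM in control and at 42.0, 39.9 and 38.7 CPM with 25(OH)D. The first control library lay below the first 25(OH)D library, so the groups overlapped. The mean was 45.0 ± 3.16 CPM in control and 40.2 ± 1.66 CPM in 25(OH)D (SD, n = 3 each), for a log2 fold change of -0.16 (SE 0.0642, adjusted p = 0.0662), which did not pass the threshold. It passed without control replicate 1 (log2 fold change -0.21, adjusted p = 0.0227), and with scaling by library size alone (adjusted p = 0.0215) or by the upper quartile (adjusted p = 0.0271). The 95% confidence interval, not adjusted for the number of genes tested, ran from -18.8% to -1.71%, so the data leave room for a fall of up to 18.8%. The exons of MBNL1 share 1140 bases (11.4%) with the antisense gene MBNL1-AS1, whose log2 fold change was -0.11 (adjusted p = 0.561).

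MBNL2, on the plus strand at chr13:97221434-97394120, had a positive log2 fold change that was not called. It was at 6.004, 6.19 and 6.52 CPM in control and at 6.88, 7.93 and 8.47 CPM with 25(OH)D, from 234 to 305 counts per library. Every 25(OH)D library was above every control library. The mean was 6.24 ± 0.261 CPM in control and 7.76 ± 0.807 CPM in 25(OH)D (SD, n = 3 each), for a log2 fold change of 0.32 (SE 0.116, adjusted p = 0.0505) that missed the threshold by little. It passed without 25(OH)D replicate 1 (log2 fold change 0.40, adjusted p = 0.0255), with RLE factors (adjusted p = 0.0457) and with a filter of at least 1 CPM in 3 libraries (adjusted p = 0.0449). With limma on log2(RPKM + 1) the difference was 0.16 (adjusted p = 0.123).

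MBNL3, on the minus strand at chrX:132369317-132489968, is known for inhibiting muscle differentiation. It was at 9.73, 9.54 and 10.2 CPM in control and at 8.88, 9.86 and 10.0 CPM with 25(OH)D, and the groups overlapped. The log2 fold change was -0.03 (SE 0.0954, adjusted p = 0.828), with a 95% confidence interval from -0.24 to 0.17.

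The makeup of the family was compared per gene length, as the share of each gene in the summed RPKM of MBNL1, MBNL2 and MBNL3. These shares were chosen after the values of the genes had been seen. They depend on the length of all annotated exons (4908 bases for MBNL2 and 12199 for MBNL3), whichever forms the cells made. In control CPM, MBNL3 (9.81) stood above MBNL2 (6.24). The MBNL1 share was 67.2%, 69.5% and 68.6% in control and 66.4%, 62.2% and 60.3% with 25(OH)D. The MBNL2 share was 19.8%, 18.8% and 19.3% in control and 22.1%, 25.2% and 26.9% in 25(OH)D. MBNL1 made up most of the family in every library, and for MBNL1 and MBNL2 the groups did not overlap. The mean MBNL1 share was 68.4% ± 1.13 in control and 63.0% ± 3.09 in 25(OH)D (SD, n = 3 each), and that of MBNL2 was 19.3% ± 0.499 and 24.7% ± 2.39. For each of these differences the two-sided exact permutation test gave p = 0.1, the smallest value that 3 libraries against 3 allow. The MBNL3 share was 12.2% ± 0.631 and 12.3% ± 0.708 (exact p = 1), and the summed RPKM of the family was 6.68 ± 0.358 and 6.29 ± 0.0759 with overlapping groups. Of 9 such shares, sums and ratios that were computed among the regulators, 5 did not overlap between the groups, and their smallest Benjamini-Hochberg adjusted p was 0.18.

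**Figure D3:**
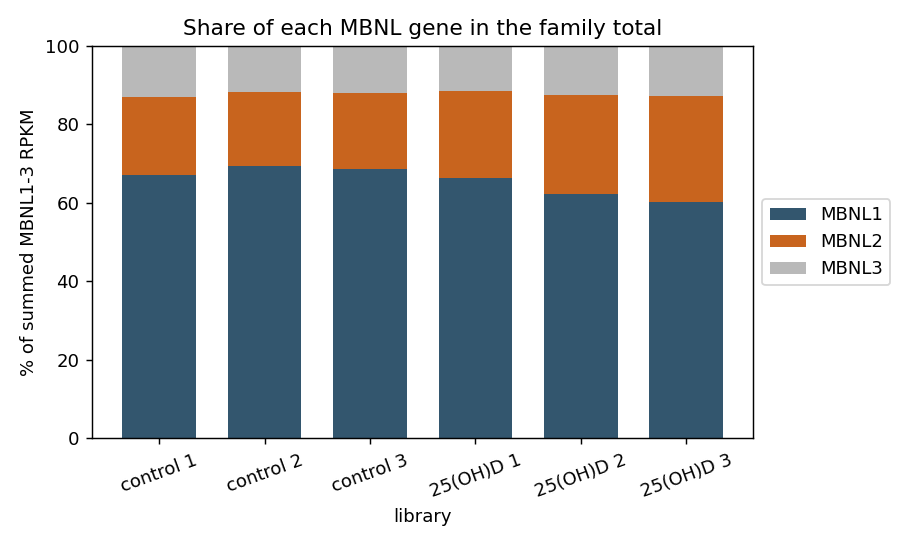
The percentage of the summed RPKM of the MBNL family taken by MBNL1, MBNL2 and MBNL3 in each of the 6 libraries, as stacked bars from 0 to 100. The MBNL2 part was between 18.8% and 19.8% in control and between 22.1% and 26.9% with 25(OH)D.

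CELF1, an antagonist of MBNL proteins at exons of heart and skeletal muscle that also promotes the decay of mRNAs with GU-rich elements, lies on the minus strand at chr11:47465944-47565569. It was at 76.5, 72.9 and 69.1 CPM in control and at 66.3, 68.4 and 69.0 CPM with 25(OH)D. The highest 25(OH)D library and the lowest control library nearly touched. The log2 fold change was -0.10 (SE 0.0516, adjusted p = 0.152), with an interval from -0.21 to 0.01. The ratio of MBNL1 to CELF1 in RPKM was 0.648 ± 0.0760 in control and 0.619 ± 0.0391 in 25(OH)D (SD, n = 3 each), and the groups overlapped (exact permutation p = 0.6).

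The epithelial splicing regulators were the most abundant of the 10 genes. ESRP1, which holds FGFR2, CTNND1 and ENAH in their epithelial forms, was at 166, 156 and 157 CPM in control and at 150, 146 and 149 CPM with 25(OH)D. The groups did not overlap. The mean was 160 ± 5.71 CPM in control and 148 ± 2.11 CPM in 25(OH)D (SD, n = 3 each), for a log2 fold change of -0.11 (SE 0.0414, adjusted p = 0.0615). ESRP2, its close relative with largely the same targets, lies on the minus strand at chr16:68229111-68238102. It was at 103, 109 and 108 CPM in control and at 100.4, 100.5 and 99.4 CPM in 25(OH)D, with groups that did not overlap. The log2 fold change of ESRP2 was -0.09 (SE 0.0424, adjusted p = 0.119). Neither passed the threshold, and both intervals ended at a fall of under 13% (-12.7% for ESRP1 and -11.9% for ESRP2). Both were called with 4 of 9 other choices of analysis, among them scaling by library size alone, and in no fit that left out a library. The ratio of ESRP1 to ESRP2 in RPKM was 1.71 ± 0.108 in control and 1.69 ± 0.0308 in 25(OH)D (SD, n = 3 each, exact permutation p = 0.9).

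Levels between genes were compared in RPKM, since longer genes collect more counts. The length covers every annotated exon base of a gene. The forms expressed may be shorter, so the order depends on that length. In control CPM, QKI (20.7) and MBNL3 (9.81) stood above MBNL2 (6.24). In control, ESRP1 (33.2 ± 1.27, SD, n = 3 here and below) and ESRP2 (19.4 ± 0.501) led, and ESRP1 stood above 92.3% of the genes tested. PTBP1 (9.42 ± 0.555), RBM47 (9.05 ± 0.487) and RBFOX2 (8.90 ± 0.680) followed, and their libraries overlapped from each to the next. CELF1 (7.08 ± 0.389) and MBNL1 (4.57 ± 0.309) came after them, each apart from its neighbours. MBNL2 (1.29 ± 0.0482) and QKI (1.21 ± 0.0765) overlapped, and MBNL3 was lowest (0.816 ± 0.0226), above 24.7% of the genes tested.

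In 25(OH)D, RBM47 (9.68 ± 0.389) stood clear of RBFOX2 (7.57 ± 0.484) and PTBP1 (6.86 ± 0.196), so that PTBP1 passed below RBFOX2 in the order. QKI (0.822 ± 0.0324) came down to the level of MBNL3 (0.774 ± 0.0519), and these were the only neighbours whose libraries overlapped. The ratio of PTBP1 to RBM47 in RPKM was 1.084, 0.995 and 1.05 in control and 0.672, 0.707 and 0.752 with 25(OH)D. The lowest ratio in control was above the highest in 25(OH)D (exact permutation p = 0.1, the smallest possible). The summed RPKM of the 10 regulators was 95.02 ± 2.50 in control and 85.3 ± 0.425 in 25(OH)D (SD, n = 3 each), and ESRP1 alone made the largest part of it. RPKM leaves out the TMM factors, which widens this difference. The factors were 1.01 to 1.02 in control and 0.980 to 0.993 in 25(OH)D.

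Other genes of the same protein families were drawn from a list of 15, of which 13 were in the table and 8 passed the filter. Of these 8, none rose and 5 fell (62.5%, against 33.8% called and 16.5% lower over all genes tested), and the median log2 fold change was -0.24 against -0.01 over all genes tested. PTBP2, the neuronal counterpart of PTBP1, had between 146 and 180 counts in control and between 108 and 119 with 25(OH)D. It fell together with PTBP1, from 4.29 ± 0.306 to 3.18 ± 0.322 CPM (SD, n = 3 each), for a log2 fold change of -0.43 (SE 0.152, adjusted p = 0.0403). The call was lost in 5 of 9 other choices of analysis and in 5 of the 6 fits without 1 library, with an adjusted p of up to 0.150. PTBP3 was at 19.4 CPM in control and 16.9 CPM in 25(OH)D (log2 fold change -0.20, adjusted p = 0.0535). The share of PTBP1 in the summed RPKM of the PTBP genes was 77.6% ± 0.961 in control and 75.2% ± 0.860 in 25(OH)D (SD, n = 3 each, exact permutation p = 0.1).

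Among the relatives of QKI, which share its KH domain, KHDRBS1 (Sam68) fell from 157 ± 7.63 to 135 ± 6.13 CPM (SD, n = 3 each), or a log2 fold change of -0.22 (adjusted p = 0.00296). KHDRBS3, a regulator of neurexin splicing in brain, fell from 3.37 ± 0.276 to 1.55 ± 0.163 CPM (SD, n = 3 each), or a log2 fold change of -1.12 (SE 0.184, adjusted p = 2.81e-04). SF1, the branch point-binding protein, fell by 0.15 on the log2 scale (adjusted p = 0.0140), a call that 3 of the 6 fits without 1 library kept. The largest fall among the CELF relatives was that of CELF6 (log2 fold change -0.95, adjusted p = 0.00534), from 83 to 123 counts in control to 45 to 58 counts with 25(OH)D. Since 88.7% of its exon bases are shared with a gene on the same strand, RP11-106M3.2, its counts are uncertain. CELF3 (log2 fold change -0.27, adjusted p = 0.712) and CELF4 (0.23, adjusted p = 0.546) had 48 counts or fewer in every library and were not called. RBFOX1, RBFOX3, CELF2, CELF5 and A1CF had between 0 and 14 counts in each library and were not tested, so RBFOX2 was the family member with nearly all RBFOX counts.

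Of 42 RNA-binding proteins from other families, listed as tissue-type regulators, 40 were in the table and 33 passed the filter. Of these, 3 rose and 13 fell (48.5%, against 33.8% called, 17.3% higher and 16.5% lower over all genes tested), with a median log2 fold change of -0.13 against -0.01. This list, like the others, was chosen with earlier results of these data known. It is not limited to proteins known mainly for splicing, as CPEB4 below shows. RBM20, the regulator of titin splicing in heart muscle, had the largest change of the regulators. Its counts were 4, 18 and 18 in control and 285, 400 and 320 with 25(OH)D. The gene was near the floor in control and well measured in 25(OH)D. Its level rose from 0.354 ± 0.223 to 9.44 ± 1.19 CPM (SD, n = 3 each), or a log2 fold change of 4.76 (SE 0.284, adjusted p = 1.04e-08). TTN, which encodes titin and is among the muscle markers, had between 113 and 174 counts in control and between 82 and 109 in 25(OH)D (log2 fold change -0.52, adjusted p = 0.0431).

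CPEB4, which binds cytoplasmic polyadenylation elements, rose from 29.8 ± 0.524 to 48.7 ± 2.82 CPM (SD, n = 3 each, log2 fold change 0.71, adjusted p = 4.63e-07). ZCCHC24, a zinc finger protein, rose from 1.32 ± 0.250 to 2.999 ± 0.410 CPM (SD, n = 3 each, log2 fold change 1.17, adjusted p = 6.31e-04). On the other side stood FUBP1, the far upstream element-binding protein with KH domains, which fell from 268 ± 9.06 to 197 ± 3.15 CPM (SD, n = 3 each, log2 fold change -0.44, adjusted p = 6.66e-07). PCBP1, a poly(C)-binding protein, fell by 0.38 on the log2 scale (adjusted p = 8.13e-06), and 52.2% of its exon bases overlap the antisense gene PCBP1-AS1, which fell as well (log2 fold change -0.31). UNK, a zinc finger RNA-binding protein, fell by 0.34 on the log2 scale (adjusted p = 3.21e-04). It shares 3.84% of its exon bases with the antisense gene H3F3B, which had more counts in every library and fell as well (log2 fold change -0.46). What these antisense overlaps contributed was not tested.

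**Figure D4:**
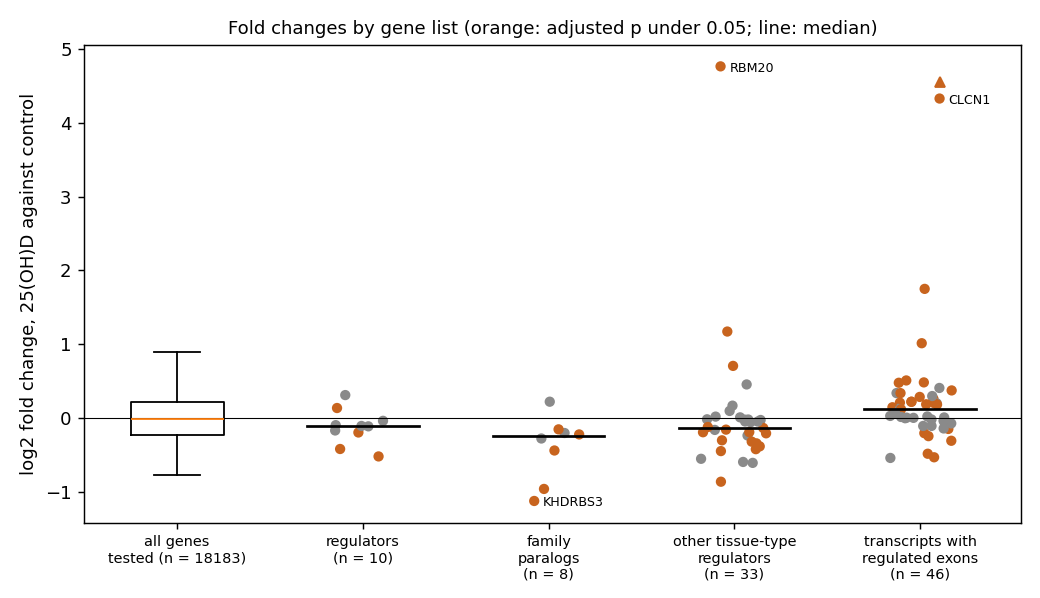
Log2 fold changes of the 10 regulators, of their family paralogs, of other tissue-type regulators and of transcripts with regulated exons, with 1 point per gene tested, orange where the gene was called, and a line at the median of each list. The box shows the quartiles of all 18183 genes tested, its whiskers reach the 5th and 95th percentiles, and CLCN1 is drawn with an arrowhead at a lower bound. RBM20 (4.76) stands apart from the other regulators, most of which lie within the range of the box and whiskers.

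The transcripts that these proteins are known to splice were measured only as summed levels. Of 48 genes listed for exons regulated by these proteins, 46 were tested, and 18 rose and 6 fell (52.2%, against the same 33.8%, 17.3% and 16.5%). The median log2 fold change was 0.12 against -0.01 over all genes tested. MPRIP, a scaffold for myosin phosphatase, rose from 305 ± 6.51 to 616 ± 7.61 CPM (SD, n = 3 each, log2 fold change 1.02, adjusted p = 2.06e-11). PKM, the pyruvate kinase gene whose choice between mutually exclusive exons is a known target of PTBP1, rose from 469 ± 16.4 to 655 ± 6.61 CPM (SD, n = 3 each, log2 fold change 0.48, adjusted p = 1.17e-07). The table does not say which of these exons was used.

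PPFIBP1 (liprin beta), one of the transcripts the study followed as an MBNL1 target, fell from 87.7 ± 2.42 to 62.9 ± 1.44 CPM (SD, n = 3 each, log2 fold change -0.48, adjusted p = 2.14e-06). MAP2K7, another of them and a kinase of the JNK pathway, fell by 0.20 on the log2 scale (adjusted p = 0.0248), a call kept in 2 of the 6 fits without 1 library. KIF13A, a kinesin and the other one, was at 63.8 ± 1.43 CPM in control and 64.2 ± 3.51 CPM in 25(OH)D (SD, n = 3 each), for a log2 fold change of 0.01 (SE 0.0534, adjusted p = 0.931) that changed sign with the scaling. The study selected KIF13A and PPFIBP1 partly by splicing events found in its own 25(OH)D sequencing. Their place in the list is therefore not independent of these data. ITGA6, the integrin alpha subunit with epithelial and mesenchymal tails, fell from 89.9 ± 10.0 to 62.5 ± 4.10 CPM (SD, n = 3 each, log2 fold change -0.53, adjusted p = 6.46e-05). It shares 1.91% of its exon bases with the antisense gene AC078883.3, which fell as well (log2 fold change -0.62). MACF1, which links microtubules and actin, fell by 0.30 on the log2 scale (adjusted p = 6.25e-04). CLCN1, the muscle chloride channel and a classic MBNL1 target, is named because it stands out in the plot of the lists. It had 3, 0 and 0 counts in control and 63, 68 and 36 with 25(OH)D, which is at least 20.04-fold higher against a floor of 3 counts per library.

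**Figure D5:**
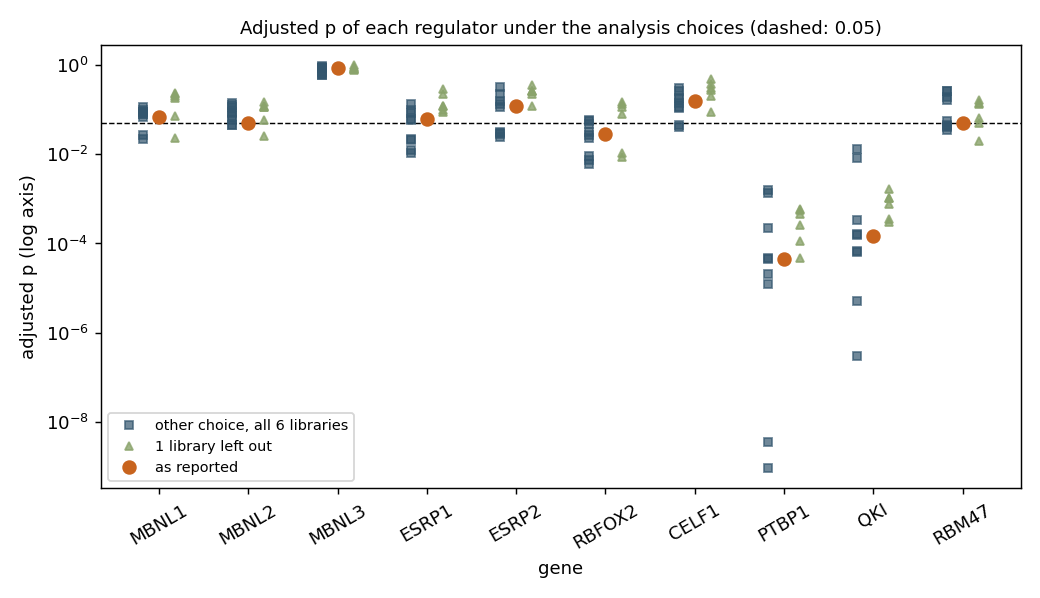
Adjusted p of each regulator on a log axis, as reported (circles), under 9 other choices of normalization, filter or test (squares) and without each of the 6 libraries in turn (triangles), with a dashed line at 0.05. For PTBP1 and QKI all values lie below the line, for MBNL3 all lie above it, and for the remaining 7 genes the values fall on both sides.

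Reads of near-identical copies and of overlapping genes can be misplaced by a counter. No stretch of 100 bases of a transcript of the 10 regulators occurred in the same sense in a transcript of another gene. In the opposite sense, MBNL1, ESRP2 and CELF1 had such stretches. ESRP2 overlaps 149 bases of NFATC3 (2.68% of its exon bases) and CELF1 overlaps 234 bases of NDUFS3 (2.24%), genes that were not called. ESRP2 also shares 35 bases (0.629%) with RP11-96D1.11 on the same strand, which was called higher (log2 fold change 0.19, adjusted p = 0.0437). Shorter or less counted antisense overlaps were 140 bases of CELF1 with PTPMT1, 25 of RBM47 with RP11-588L15.2 and 415 of MBNL1 with RP11-362A9.3. What these overlaps contributed was not tested. The libraries were stranded, but the strand setting of the counting is not given in the sources used here. PTBP1, QKI, RBFOX2, ESRP1, MBNL2 and MBNL3 shared no exon bases with another gene.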

How the data were processed

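MDA-MB-453 cells received 100 nM 25(OH)D or solvent for 5 days, and 3 stranded mRNA libraries per group were assigned from the sample labels. The authors deposited whole-number counts per gene without normalization, and RPKM values, which equalled the deposited count divided by gene length and library total (largest relative difference 2.23e-13). The submitters' processing notes name Trimmomatic 0.36, featureCounts, Subread 1.5.1, edgeR 3.12.1 and GRCh38. The aligner and annotation release are not given in the sources used here.

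The count model was edgeR 4.0.16 in R 4.3.3 (TMM factors, low-count filter with a minimum count of 10, quasi-likelihood test without covariates). P-values were adjusted by Benjamini-Hochberg over the 18183 genes tested. Standard errors are the absolute log2 fold change divided by the square root of F. Confidence intervals were built from them with the t distribution, for each gene alone and without adjustment for the number of genes. The scripts were tested on simulated data. For single values, two-sided exact permutation tests were run (smallest p 0.1). Library totals were 33268860 to 40928176, 3 counts were worth 0.0720 to 0.0921 CPM, and precision at low counts is limited accordingly. Replicates were not duplicates (chi-square per gene 3.85 to 11.2).

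Transcripts, exons and primer matches used GENCODE 29 on GRCh38, with promoter windows from RefSeq (GRCh38.p14), which had entries for 6 of the 10 genes. Primer sequences came from the study's primer list. Alternatives were RLE, upper-quartile or no scaling factors, no filter, at least 1 CPM in 3 libraries, DESeq2 1.42.0, the replicate number as a block, limma 3.58.1 on log2(RPKM + 1) and log2(RPKM + 0.1), a limit on fold change, and omission of each library. The rule named the 10 genes, their tested paralogs, the 3 genes with the smallest p per direction in the other lists, and KIF13A, PPFIBP1 and MAP2K7. One gene that this rule selects is not reported here. CLCN1 and TTN, and the shares and ratios, were chosen after values were seen. The genes and lists were chosen with earlier results of these data known. Python 3.11.15, pandas 2.3.3, numpy 2.4.6, scipy 1.17.1 and matplotlib 3.10.9 served the remaining steps. Splice junctions were not analysed here.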

Additional observations from a re-analysis of the deposited data

How the results depend on the processing

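The number of regulators called higher (1 as reported) was 2 with RLE factors and 2 with at least 1 CPM in 3 libraries, 0 with upper-quartile factors, with library size alone, without a low-count filter and with limma at either pseudocount, and 0 to 1 without each library in turn. The number called lower (3 as reported) was 7 with upper-quartile factors and 7 with library size alone, under which the median of all genes was -0.05 in place of -0.01, and 2 to 3 without each library. Paralogs called lower (5 as reported) ranged from 3 to 6 and other regulators called lower (13 as reported) from 8 to 12 without each library. With an absolute log2 fold change over 1 as well, 671 genes were higher and 419 lower over all genes tested, 0 regulators were higher and 0 lower, 1 paralog was lower, 2 other regulators were higher and 0 lower, and 3 transcripts with regulated exons were higher and 0 lower. MBNL3 changed sign without 25(OH)D replicate 1 (0.025), and ranged from -0.054 to 0.025 without each library. KIF13A changed sign with upper-quartile factors (-0.034), library size alone (-0.036), limma (-0.032 and -0.037) and without 25(OH)D replicate 1 (-0.032), and ranged from -0.032 to 0.051 without each library. The cause of these changes was not tested. Over all single genes and settings, 422 values kept their direction and side of the threshold, 19 passed it, 32 no longer passed it and 6 changed sign. Same-numbered libraries did not deviate together (correlations between -0.07 and -0.01 over 18183 genes). These correlations gave no sign of pairing by number, but they cannot exclude it, as they do not show how the cultures were handled. With the replicate number as a block, 3057 genes were called higher and 2896 lower, with 1 regulator higher and 3 lower, and PTBP2 lost its call (adjusted p = 0.0644). Depth limits the genes near 3 counts, and isoform levels are outside these data.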
